A study of Rattus norvegicus with 44 samples.

Results

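Kidney injury markers are transcripts that a damaged renal tubule raises, and 8 of them, *Havcr1*, *Lcn2*, *Gdf15*, *Vim*, *Vcam1*, *Clu*, *Spp1* and *Timp1*, were read in kidney at every dose of crude 4-methylcyclohexanemethanol (MCHM), a coal-washing solvent, with liver beside it. They were chosen by name, as every probe set whose platform annotation gives 1 gene and that gene is among the 8. This gave 9 probe sets of the 31042 tested, and 8 of the 14217 genes named. *Clu* has 2 probe sets (1367784_a_at, the brighter, and 1388246_at) and each other gene has 1 (*Havcr1* 1387965_at, *Lcn2* 1387011_at, *Gdf15* 1370153_at, *Vim* 1367574_at, *Vcam1* 1368474_at, *Spp1* 1367581_a_at and *Timp1* 1367712_at).

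None of the 8 transcripts passed the test in kidney at any dose, and at 500 mg/kg the kidney levels of 5 of them differed from vehicle by no more than 0.17 on the log2 scale. The transcript with the largest difference was *Gdf15*, whose kidney level was 2.48-fold lower in value at 500 mg/kg than in vehicle animals, opposite to the direction known from injury, and which, among the alternatives run, passed the threshold only when 1 vehicle array was left out or arrays were weighted. *Spp1* was 2.23-fold higher in value at 500 mg/kg, within a wide spread between arrays, and its highest group was 1 mg/kg. *Havcr1*, the most specific of these markers for the proximal tubule, differed from vehicle by -0.06 on the log2 scale at the top dose.

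The study measured total RNA on Affymetrix Rat Genome 230 2.0 arrays, which carry 3' probe sets, in 17 kidney and 27 liver samples of male Harlan Sprague Dawley rats aged 6 to 8 weeks at assignment and kept on the NTP-2000 diet. Every animal received corn oil by gavage at 5 mL/kg on 5 consecutive days, with or without crude MCHM, and was killed the day after the last dose. The 7 groups of an organ received 0 (corn oil alone, the vehicle group), 0.1, 1, 10, 100, 300 or 500 mg/kg. Kidney had 3 arrays at 0, 300 and 500 mg/kg and 2 at each other dose, and liver had 4 arrays in each group except 3 at 0.1 mg/kg. The labels call the arrays of a group biological replicates, and arrays with batch effects were taken out by the submitters, so the small groups are what remained. Precision is limited by this small number of arrays.

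In the healthy kidney the proximal tubule keeps most of these genes low. After toxic or ischaemic damage the surviving tubule cells lose part of their epithelial character, raise intermediate filaments and adhesion molecules, and secrete proteins that are measured in urine. *Havcr1* encodes KIM-1, a phosphatidylserine receptor on injured proximal tubule cells, *Lcn2* encodes NGAL, an iron-siderophore binding protein of the distal nephron and neutrophils, and *Clu* encodes clusterin, a secreted chaperone. *Gdf15* encodes a stress cytokine of the TGF-beta family, *Spp1* encodes osteopontin, a secreted phosphoprotein, *Vim* the intermediate filament vimentin, *Vcam1* an adhesion molecule for leukocytes, and *Timp1* an inhibitor of matrix metalloproteinases.

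The upstream windows of *Gdf15* and *Spp1*, which had the largest differences of the 8 at the top dose, are shown to let a reader see the letters that lie before the 2 genes. They are the 250 bases before the RefSeq start of each gene on assembly GRCr8, read on the gene's own strand, with each TATAAA in capitals. *Gdf15* has 2 start sites in that table, both on the plus strand. The window of the first, chr16:18838186-18838435, holds 0 TATAAA and is not printed. That of the second, chr16:18839015-18839264, is shown because it holds one, a choice made after the windows were read. The *Spp1* window is chr14:5619805-5620054 on the minus strand.
Gdf15: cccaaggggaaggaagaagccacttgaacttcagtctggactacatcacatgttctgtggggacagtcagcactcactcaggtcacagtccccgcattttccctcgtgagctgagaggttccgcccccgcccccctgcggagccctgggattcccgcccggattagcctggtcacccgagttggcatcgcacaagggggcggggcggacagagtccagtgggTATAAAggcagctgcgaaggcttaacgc
Spp1: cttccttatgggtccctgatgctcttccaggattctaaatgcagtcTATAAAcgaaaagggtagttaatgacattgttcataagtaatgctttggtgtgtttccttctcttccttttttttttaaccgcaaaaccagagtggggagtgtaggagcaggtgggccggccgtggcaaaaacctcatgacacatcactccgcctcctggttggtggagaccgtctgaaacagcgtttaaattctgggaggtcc

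The match in *Gdf15* begins 28 bases before the start, the usual distance of a TATA box, and the match in *Spp1* begins 204 bases before it. RefSeq windows were held for 7 of the 8 genes, with no entry for *Clu*. Matches to TATAAA on either strand were also found before *Vim* and *Vcam1*, and 12.9% of 33469 rat promoter windows of this length hold 1. The searched letters of stress and cytokine response factors, each on both strands, were TGANTCA (AP-1), TGACGT (ATF and CREB), TGATGNAA (ATF4 with a C/EBP partner) and TTCNNNGAA (STAT). The 8 windows of the 7 genes held 0 matches to any of these, against 6.34%, 6.95%, 3.40% and 7.67% of all windows, which says only that these letters are not in these windows.

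Values are log2 expression values from RMA, the array summary that the submitters' processing notes name, so 1 unit is a 2-fold difference. Detection above background was not assessed, since scanner output is not analysed here. RMA compresses the differences of dim probe sets, which bears most on *Havcr1*, whose kidney mean of 4.12 was higher than 31.1% of probe sets, and on *Lcn2*, whose 5.29 was higher than 49.4%. *Gdf15* at 7.11 stood above 71.7%. In bulk tissue, fewer cells of a type and less RNA per cell cannot be told apart.

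The tissue labels fitted the marker lists. The mean log2 level of 14 proximal tubule markers was 11.80 to 12.16 in the kidney arrays and 7.60 to 7.92 in liver, and that of 9 hepatocyte markers was 13.14 to 13.53 in liver. Kidney array pairs correlated at 0.984 to 0.996. Still, 3 arrays stood apart. *Xist*, the RNA of the inactive X chromosome, was at 6.95 in kidney vehicle replicate 2 and 2.68 to 3.02 in the other kidney arrays, and at 8.25 in liver vehicle replicate 2 and 2.79 to 3.27 in the other liver arrays, although every animal is labelled male. The hepatocyte list averaged 7.31 in kidney 1 mg/kg replicate 1 and 4.13 to 4.56 in the other kidney arrays, with *Alb* (albumin) at 11.06 there and 3.85 to 5.86 elsewhere. Without any 1 of these 3 arrays, 0 of the 8 transcripts passed the test in any comparison.

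**Figure D1:**
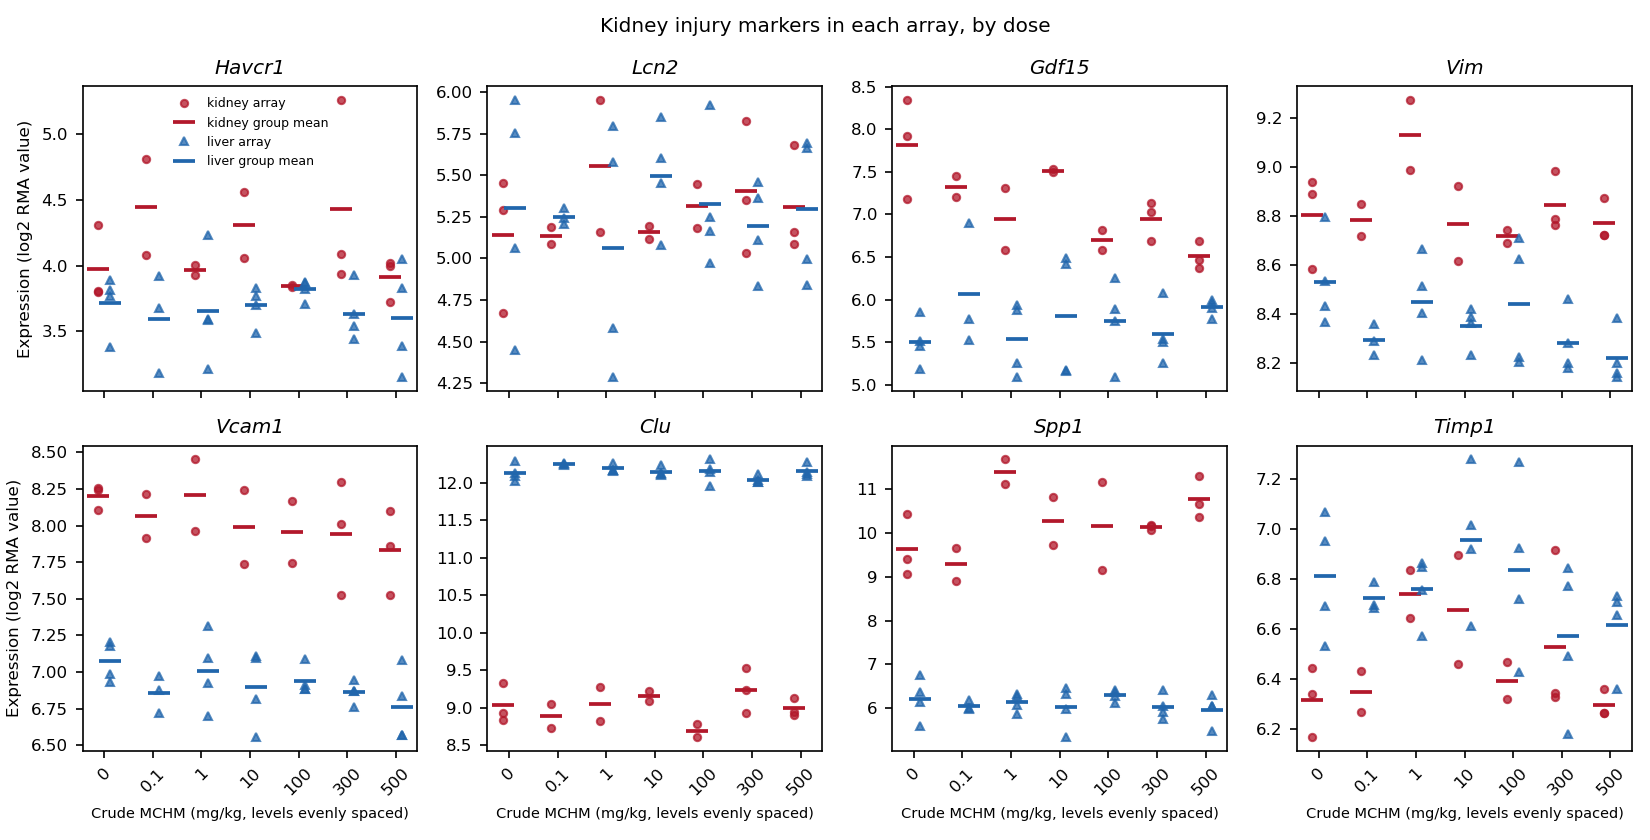
Log2 RMA value of each injury marker (vertical axis, own scale per gene) in each array against the dose of crude MCHM in mg/kg (horizontal axis, levels evenly spaced), with circles for kidney arrays, triangles for liver arrays and bars for group means. Kidney *Gdf15* lies between 6.37 and 7.13 in all 8 arrays at 100 mg/kg and above, under the lowest vehicle array at 7.18, while *Spp1* spreads from 8.91 to 11.68 with no steady order over dose.

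The first question was whether any marker differed from vehicle in kidney. In kidney, 0% of all probe sets passed an adjusted p of 0.05 at any dose in limma (Benjamini-Hochberg over 31042 probe sets), and the 8 markers likewise gave 0 of 8 in each of the 8 kidney comparisons: 6 doses, a slope over dose levels, and the 2 top doses against the 4 lower ones. At 500 mg/kg, 2 of 8 had an unadjusted p under 0.05, where 10.1% of all probe sets did, and 2 of 8 had groups that did not overlap, where 15.8% of all did. At 300 mg/kg these counts were 1 of 8 beside 3.62% and 1 of 8 beside 7.68%, and at 100 mg/kg they were 1 of 8 beside 3.95% and 2 of 8 beside 15.4%. At 500 mg/kg the median difference of the 8 was -0.03, and that of all probe sets was -0.01. The 6 comparisons with vehicle share the same 3 vehicle arrays.

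Among the tubule injury proteins, *Havcr1* read 4.31, 3.81 and 3.80 in the 3 vehicle kidneys and 4.00, 4.02 and 3.73 at 500 mg/kg. The top-dose arrays lay inside or just below the vehicle range, and the groups overlapped. The difference was -0.06 (SE 0.29, adjusted p = 0.966 in limma), with a 95% interval of -0.68 to 0.56, so the interval holds rises of up to 1.47-fold on this scale. The highest *Havcr1* values were single arrays at 3 doses, 5.26 in 300 mg/kg replicate 3, 4.81 in 0.1 mg/kg replicate 1 and 4.56 in 10 mg/kg replicate 1, each beside lower arrays of its own group. At 300 mg/kg the arrays read 4.09, 3.94 and 5.26, and the difference from vehicle was 0.46 (SE 0.29, adjusted p = 0.999 in limma), or 0.04 without replicate 3.

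*Lcn2* read 4.67, 5.29 and 5.45 in vehicle kidneys and 5.08, 5.68 and 5.16 at 500 mg/kg. These groups overlapped, the difference was 0.17 (SE 0.25), and its 95% interval ran from -0.37 to 0.71 (adjusted p = 0.864 in limma). The highest *Lcn2* array was 1 mg/kg replicate 1, at 5.95, the array that carried hepatocyte transcripts. Group means ran from 5.14 ± 0.07 (SD, n = 2) at 0.1 mg/kg to 5.56 ± 0.56 (SD, n = 2) at 1 mg/kg, which is within the spread of the arrays.

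*Clu* was bright in kidney on 1 probe set and dim on the other. On the bright one the vehicle kidneys read 8.84, 9.33 and 8.93, and the 500 mg/kg kidneys 9.13, 8.91 and 8.94. The top-dose values all lay within the vehicle range, and the difference was -0.04 (SE 0.17, 95% interval -0.40 to 0.33, adjusted p = 0.964 in limma). The lowest *Clu* group was 100 mg/kg, at 8.78 and 8.61, both below every vehicle array. The dim probe set averaged 3.53 in kidney and differed from vehicle by -0.01 at 500 mg/kg.

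*Gdf15* gave the largest difference among the 8. The vehicle kidneys read 7.18, 7.92 and 8.35. The kidneys at 500 mg/kg read 6.68, 6.37 and 6.46, all below the lowest vehicle array. The difference was -1.31 (SE 0.24, 95% interval -1.83 to -0.79), lower in 3 of 3 arrays, and did not pass the threshold (adjusted p = 0.326 in limma), although it ranked 9 by p among the 31042 probe sets and had an unadjusted p of 1.00e-04.

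At the other doses *Gdf15* read 7.20 and 7.45 at 0.1 mg/kg, 7.31 and 6.59 at 1 mg/kg. The pair at 10 mg/kg read 7.50 and 7.54. At 100 mg/kg the pair read 6.82 and 6.58, and the kidneys at 300 mg/kg read 7.02, 6.69 and 7.13. The groups at 100 and 300 mg/kg did not overlap with vehicle, and those at 0.1, 1 and 10 mg/kg did. The differences from vehicle were -0.49, -0.87, -0.30, -1.12 and -0.87 in rising order of dose, and none passed the threshold. In order of their means the groups stood at 6.51 ± 0.16 (SD, n = 3) for 500 mg/kg, 6.70 ± 0.16 (n = 2) for 100 mg/kg, 6.95 ± 0.51 (n = 2) for 1 mg/kg, 6.95 ± 0.23 (n = 3) for 300 mg/kg, 7.33 ± 0.18 (n = 2) for 0.1 mg/kg, 7.52 ± 0.03 (n = 2) for 10 mg/kg and 7.82 ± 0.59 (n = 3) for vehicle. Neighbours in this order differed by less than the pooled SD within groups, 0.34, except 300 and 0.1 mg/kg, and the order does not follow dose step by step.

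The slope over the dose levels 0 to 6 was -0.18 per level for *Gdf15* (SE 0.04, adjusted p = 0.372 in limma). A comparison that uses no vehicle array set the 6 kidneys at 300 and 500 mg/kg against the 8 at 0.1 to 100 mg/kg. There *Gdf15* differed by -0.39 (SE 0.16, adjusted p = 0.694 in limma), and the exact two-sided permutation test of the array values gave p = 0.0699. The difference between dosed groups was thus smaller in value than that from vehicle.

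The adjusted p of *Gdf15* turned on 1 vehicle array. Without vehicle replicate 1, the lowest of the 3 at 7.18, the difference at 500 mg/kg was -1.63 (adjusted p = 0.00125 in limma). Those at 300, 100 and 1 mg/kg passed too, at -1.19, -1.43 and -1.19 (adjusted p = 0.0278, 0.0437 and 0.0291). The vehicle group of these fits was replicates 2 and 3 only, and replicate 2 is the array with *Xist*. With all arrays weighted by their quality, the difference at 500 mg/kg was -1.47 (adjusted p = 0.0366). Without vehicle replicate 2, the array with *Xist*, it was -1.25 (adjusted p = 0.891), and without vehicle replicate 3 it was -1.04 (adjusted p = 0.777). Over all probe sets, too, leaving out vehicle replicate 1 moved the number past the threshold at 500 mg/kg from 0 to 616.

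**Figure D2:**
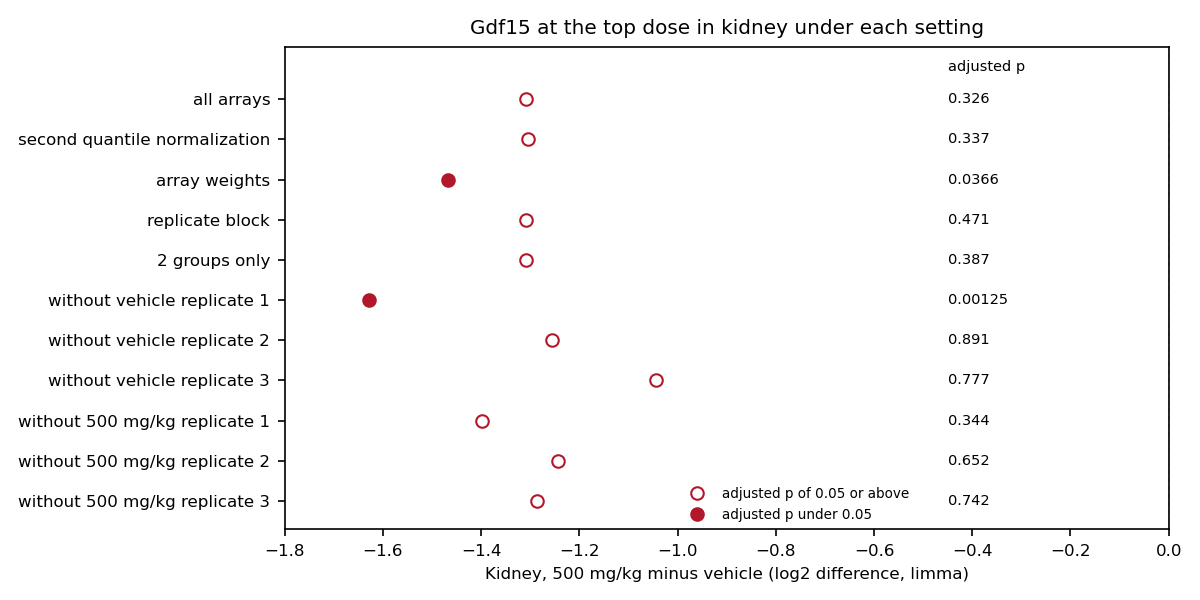
Kidney *Gdf15* at 500 mg/kg minus vehicle on the log2 scale (horizontal axis) under the fits listed (vertical axis), with the limma adjusted p at the right. Filled points have an adjusted p under 0.05. The difference stays between -1.63 and -1.04, and the filled points are array weights and the fit without vehicle replicate 1.

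Fat and immune markers were set beside *Gdf15*. The mean of 9 measured fat cell markers ran from 5.39 to 7.04 in vehicle kidneys and 5.43 to 7.44 at 500 mg/kg. Vehicle replicates 2 and 3 were high on this list, at 6.73 and 7.04, and so were 1 mg/kg replicate 2, 300 mg/kg replicate 2 and 500 mg/kg replicate 2, at 7.74, 7.08 and 7.44. In those 3 dosed arrays *Gdf15* read 6.59, 6.69 and 6.37, the lowest value of each group. In vehicle replicates 2 and 3 it read 7.92 and 8.35, above every other kidney array. The mean of 9 measured macrophage markers was 6.62 to 6.87 in vehicle kidneys and 6.25 to 6.60 at 500 mg/kg, with 8 of 9 lower in value and 0 past the threshold. The part of these markers in the *Gdf15* values was not tested.

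*Spp1* varied most of the 8 across kidney arrays, with a pooled SD of 0.68 within dose groups. The vehicle kidneys read 9.06, 9.40 and 10.43, and the 500 mg/kg kidneys read 10.38, 11.31 and 10.66. The lowest top-dose array lay just under the highest vehicle array, so the groups overlapped. The difference was 1.15 (SE 0.47, 95% interval 0.15 to 2.16), with an unadjusted p of 0.0277 and an adjusted p of 0.432 in limma.

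The doses between gave no steady order for *Spp1*. It read 9.66 and 8.91 at 0.1 mg/kg, 11.12 and 11.68 at 1 mg/kg. The pair at 10 mg/kg read 10.83 and 9.72. At 100 mg/kg the pair read 9.16 and 11.17, and the kidneys at 300 mg/kg read 10.16, 10.07 and 10.17. The 1 mg/kg arrays were the highest group and did not overlap with vehicle, the pair at 100 mg/kg lay farther apart than the vehicle arrays, and the 3 at 300 mg/kg were nearly equal. The difference at 1 mg/kg was 1.77 (SE 0.53, adjusted p = 0.672 in limma) and 2.05 without the array that carried hepatocyte transcripts (adjusted p = 0.919). At 300 mg/kg it was 0.51 (SE 0.47, adjusted p = 0.999). The slope was 0.14 per level (SE 0.08, adjusted p = 0.717 in limma), and the top doses differed from the lower doses by 0.18 (SE 0.31, adjusted p = 0.934).

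Tubule and urothelium markers were set beside *Spp1*, whose transcript is also known from the loop of Henle and the distal nephron. The 3 arrays with the lowest proximal tubule mean of the 17 were 500 mg/kg replicate 2 at 11.80, 100 mg/kg replicate 2 at 11.82 and 300 mg/kg replicate 2 at 11.91, where *Spp1* read 11.31, 11.17 and 10.07. The mean of 7 measured thick limb and distal tubule markers was 9.87 to 10.08 in vehicle kidneys and 9.98 to 10.35 at 500 mg/kg. The mean of 8 renal pelvis urothelium markers was 4.14 to 4.43 in vehicle kidneys and 4.20 to 4.68 at 500 mg/kg. All 8 were higher in value at 500 mg/kg and 0 passed the threshold. The highest group on this list was 100 mg/kg, at 4.45 to 4.88. The part of these segments in the *Spp1* values was not tested.

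**Figure D3:**
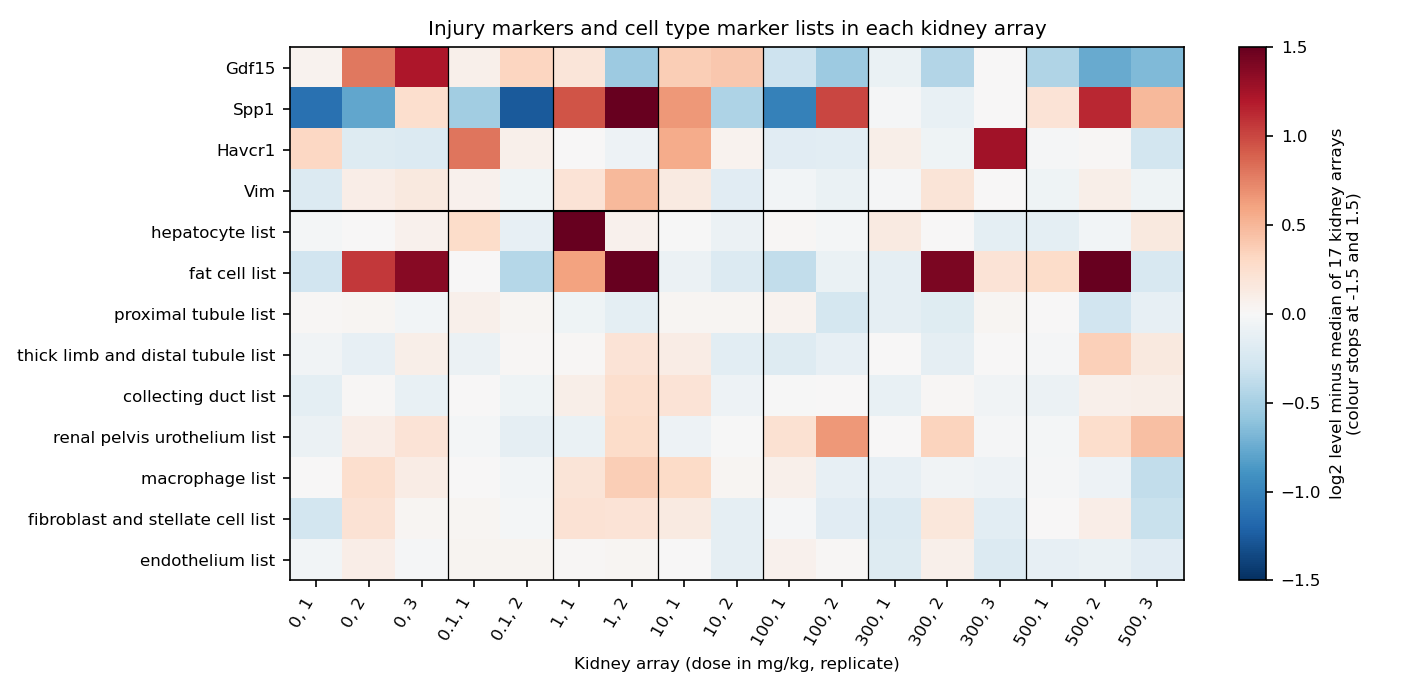
Log2 level of 4 injury markers and mean log2 level of 9 cell type marker lists in each kidney array, minus the median of the 17 kidney arrays (colour, stopping at -1.5 and 1.5). Columns are arrays by dose in mg/kg and replicate. *Gdf15* is blue in the 3 arrays at 500 mg/kg, *Spp1* changes colour within dose groups, and the hepatocyte list is red in 1 array at 1 mg/kg.

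*Vim* was the steadiest of the 8 in kidney, with a pooled SD of 0.15. It read 8.59, 8.89 and 8.94 in vehicle kidneys and 8.72, 8.88 and 8.72 at 500 mg/kg, all within the vehicle range. The difference was -0.03 (SE 0.12, 95% interval -0.29 to 0.23, adjusted p = 0.955 in limma). The 1 mg/kg arrays, at 8.99 and 9.27, were the 2 highest of the 17 and lay above every vehicle array, with a difference of 0.33 (SE 0.13, adjusted p = 0.710) and of 0.47 without the array that carried hepatocyte transcripts.

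*Vcam1* read 8.11, 8.26 and 8.25 in vehicle kidneys and 7.86, 8.10 and 7.53 at 500 mg/kg. Every top-dose array was below every vehicle array, the nearest by a narrow margin. The difference was -0.37 (SE 0.21, 95% interval -0.83 to 0.08) and did not pass the threshold (adjusted p = 0.586 in limma). The slope was -0.06 per level (SE 0.03, adjusted p = 0.685 in limma).

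*Timp1* read 6.17, 6.45 and 6.34 in vehicle kidneys and 6.26, 6.36 and 6.27 at 500 mg/kg. All top-dose arrays lay within the vehicle range, and the difference was -0.02 (SE 0.15, 95% interval -0.35 to 0.31, adjusted p = 0.976 in limma). At 1 mg/kg the arrays read 6.84 and 6.65, above every vehicle array. The difference was 0.42 (SE 0.17, adjusted p = 0.705 in limma), and 0.33 without the array that carried hepatocyte transcripts. Single arrays at 10 and 300 mg/kg, at 6.90 and 6.92, were higher than both 1 mg/kg arrays. The other array at 10 mg/kg read 6.46, just above the highest vehicle array, so that group did not overlap with vehicle either.

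At 1 mg/kg, then, *Spp1*, *Vim* and *Timp1* were higher in value than in every vehicle kidney. There 4 of 8 markers had an unadjusted p under 0.05, 3 higher and 1 lower, where 6.98% of all probe sets did, and 3 of 8 did not overlap with vehicle, where 22.9% of all did. None of the 4 passed the threshold. The group is 2 arrays, 1 of which carried hepatocyte transcripts while the other had the highest fat cell mean of the 17, at 7.74.

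**Figure D4:**
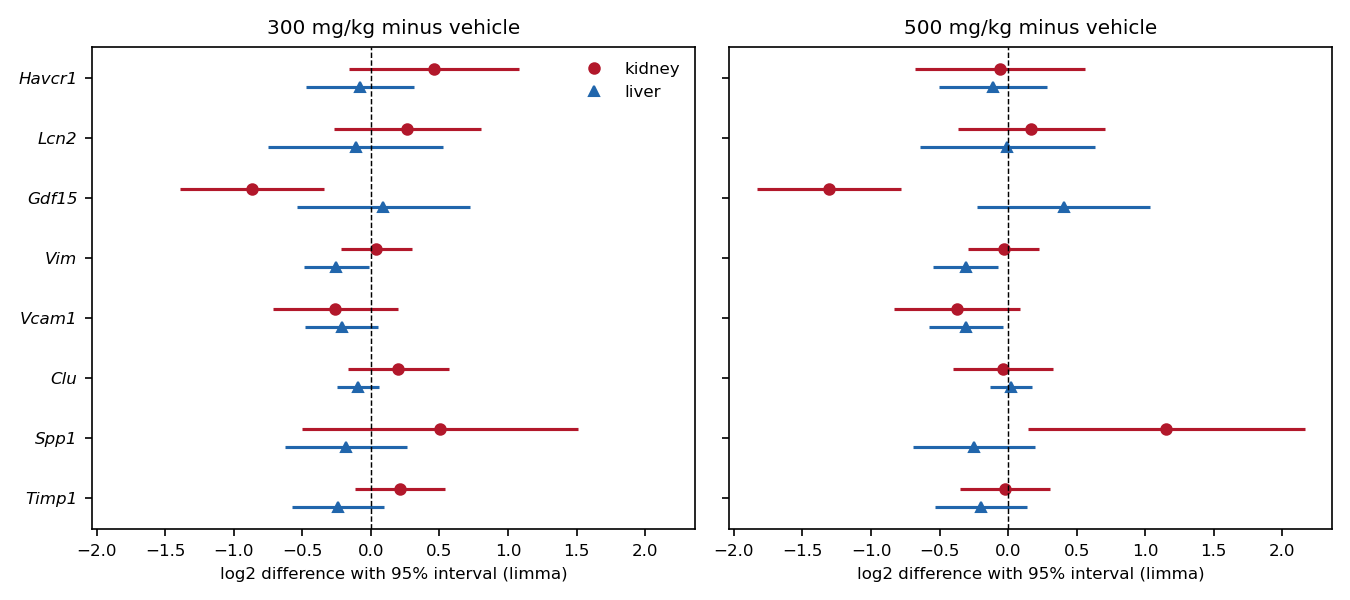
Difference from vehicle on the log2 scale with its 95% interval from limma (horizontal axis) for each injury marker at 300 and 500 mg/kg, circles for kidney and triangles for liver. In kidney at 500 mg/kg the intervals of *Gdf15* (-1.83 to -0.79) and *Spp1* (0.15 to 2.16) do not hold 0, and none of the values passed the adjusted threshold.

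In liver the same transcripts had other levels. *Spp1* averaged 6.10 there against 10.23 in kidney, *Gdf15* 5.73 against 7.11 and *Vcam1* 6.92 against 8.02, while *Clu*, which hepatocytes secrete, averaged 12.15 against 9.02. Whether the organs were normalized together is not given in the sources used here, so these levels are set side by side without a test. *Lcn2* had nearly the same mean in both organs, at 5.29 in kidney and 5.28 in liver.

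In liver 0 of 8 markers passed in any comparison, where 0.177% of all probe sets passed at 500 mg/kg, 0.122% at 300 mg/kg, 0.570% between top and lower doses and 0.245% in the slope. At 500 mg/kg 2 of 8, *Vim* and *Vcam1*, had an unadjusted p under 0.05, where 8.99% of all probe sets did. *Vim* read 8.37, 8.80, 8.53 and 8.43 in vehicle livers. The 300 mg/kg livers read 8.18, 8.28, 8.20 and 8.46, and those at the top dose 8.16, 8.39, 8.14 and 8.20. Most dosed arrays lay below the lowest vehicle array and 1 at each dose lay within the vehicle range. The difference was -0.31 at 500 mg/kg (SE 0.12, adjusted p = 0.389 in limma) and -0.25 at 300 mg/kg (SE 0.12, adjusted p = 0.475), and the slope was -0.04 per level (SE 0.02, adjusted p = 0.347). The highest vehicle liver, at 8.80, was replicate 2, the liver with *Xist*. Without it the differences were -0.22 at 500 mg/kg and -0.16 at 300 mg/kg, the smallest of the fits that left out 1 array.

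*Vcam1* read 7.21, 7.18, 6.93 and 6.98 in vehicle livers and 6.83, 7.08, 6.57 and 6.57 at 500 mg/kg, with 3 of 4 below every vehicle array. The difference was -0.31 (SE 0.13, adjusted p = 0.470 in limma) and the slope -0.04 per level (SE 0.02, adjusted p = 0.398). Liver *Gdf15* read 5.18, 5.45, 5.51 and 5.86 in vehicle and 5.99, 5.78, 5.96 and 5.90 at 500 mg/kg. The top-dose livers were close together, and 1 of them lay within the vehicle range, with a difference of 0.41 (SE 0.31, adjusted p = 0.762 in limma).

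Between the 8 livers at 300 and 500 mg/kg and the 15 at 0.1 to 100 mg/kg, all 8 markers were lower in value, by 0.04 to 0.22, with a median of -0.10 against 0.00 for all probe sets. *Timp1* ran from 6.18 to 6.84 in the top-dose livers and from 6.43 to 7.28 in the lower-dose livers, so the groups overlapped. Its difference was -0.22 (SE 0.10, adjusted p = 0.372 in limma), and the two-sided permutation test gave p = 0.0340. *Vim* differed by -0.13 (SE 0.07, adjusted p = 0.490, permutation p = 0.0449). *Clu* differed by -0.09 on its bright probe set (SE 0.05, adjusted p = 0.474, permutation p = 0.0414) and by 0.16 on its other probe set, so its probe sets disagree in direction. Permutation tests were run for all 8 genes in both organs, and their p-values are unadjusted. They compared means over arrays pooled across doses, while limma compared means of the group means. In limma 1 of the 8 had an unadjusted p under 0.05 in this liver comparison, where 3662 of 31042 probe sets did. In the same comparison 11 of 12 fibroblast and stellate cell markers were lower in value (median -0.14, 6 with an unadjusted p under 0.05). So were 9 of 9 measured macrophage markers (median -0.10, 3 with an unadjusted p under 0.05), and 0 of either list passed the threshold. Of all 31042 probe sets, 3662 had an unadjusted p under 0.05 in this comparison, in either direction. The mean log2 level of the fibroblast and stellate list ran from 7.33 to 7.61 in the top-dose livers and from 7.33 to 7.79 in the lower-dose livers. That of the macrophage list ran from 8.38 to 8.86 and from 8.46 to 8.86, so both overlapped. The part of these markers in the liver values was not tested.

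Whether the change from vehicle differed between the organs was tested in 1 fit of all 44 arrays, as the kidney change minus the liver change. For *Gdf15* it was -0.96 at 300 mg/kg (SE 0.44, adjusted p = 0.761 in limma) and -1.72 at 500 mg/kg (SE 0.44, adjusted p = 0.108), where 0.0290% of all probe sets passed. This was the lowest adjusted p of the 8 markers in any comparison. Without kidney vehicle replicate 1 it was -2.03 (adjusted p = 0.00705), and with array weights -1.89 (adjusted p = 0.00501). For *Spp1* at 500 mg/kg it was 1.40 (SE 0.48, adjusted p = 0.235). The labels do not say which kidney and liver came from 1 animal, so no animal block was fitted.

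Of 122 further genes of kidney injury in 5 lists, 119 were measured, and 0 passed the threshold in each of the 8 kidney comparisons. Unadjusted p-values under 0.05 at 500 mg/kg numbered 7 higher and 10 lower of 119, where 4.95% of all probe sets were higher and 5.13% lower at that p. At 300 mg/kg they numbered 1 higher and 1 lower, where 3.62% of all probe sets had one in either direction. At 1 mg/kg they numbered 13 higher and 3 lower, where 6.98% of all did. In the slope over dose levels they numbered 4 higher and 14 lower, where 2205 of 31042 probe sets did. Genes of the injured and repairing tubule (keratins, *Cd44*, *Sox9*, annexins and others) were higher in value for 19 of 31 and lower for 12 at 500 mg/kg, with a median of 0.08. Early stress and damage signals, such as *Atf3*, *Myc* and *Hmox1*, split 12 higher and 13 lower of 25, with a median of -0.03. Cytokines and adhesion molecules were lower in value for 14 of 19, with a median of -0.08, and genes of matrix and its remodelling for 16 of 21, with a median of -0.16.

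Genes that fall in an injured kidney, the transporters and enzymes of the mature tubule, were lower in value for 17 of 23, with a median of -0.11, against -0.01 for all probe sets. It shares 11 genes with the list of 14 proximal tubule markers. Of those 14 markers, 11 were lower in value at 500 mg/kg (median -0.14) and 0 passed the threshold, and their part in the count was not tested. At 1 mg/kg the injured and repairing tubule genes had their highest median, 0.33, with 25 of 31 higher in value, and 0 of them passed. An unadjusted p under 0.05 was reached by 8 that were higher and 1 that was lower, where 6.98% of all probe sets had one in either direction. The mean log2 level of that list was 8.12 in replicate 1 at 1 mg/kg, the kidney array with hepatocyte transcripts, and 7.81 in replicate 2, and the other kidneys lay between 7.37 and 7.82. The list holds *Fga*, *Fgb* and *Fgg*, which hepatocytes express too, and the part of that array in the median was not tested.

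In liver at 500 mg/kg, matrix genes were lower in value for 18 of 21, with a median of -0.26 and 0 past the threshold. Unadjusted p-values under 0.05 were reached by 10 that were lower and 1 that was higher, where 8.99% of all probe sets had one in either direction. Fibroblast and stellate cell markers, which share 4 genes with the matrix list, were lower in value for 10 of 12 (median -0.25), and macrophage markers for 8 of 9 measured (median -0.24). The mean log2 level of the fibroblast and stellate list ran from 7.33 to 7.61 in the livers at 500 mg/kg and from 7.63 to 7.91 in the vehicle livers. That of the macrophage list ran from 8.44 to 8.55 and from 8.49 to 8.92. The vehicle liver at 7.91 on the fibroblast and stellate list was replicate 2, the liver with *Xist*. That array also had the highest mean of the matrix list among all livers, at 7.34, where the others reached 7.26 at most. The part of that array and of the fibroblast and macrophage markers in the matrix values was not tested. The only member of the 5 lists past the threshold in any comparison within an organ was *Acsm2*, a medium-chain acyl-CoA ligase of the mature proximal tubule. It rose in liver between lower and top doses by 0.80 (SE 0.12, adjusted p = 0.00224 in limma). This is 1 of 119 measured, where 0.570% of all probe sets passed.

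For the 4 markers whose kidney values span over 1 log2 unit, the probe sets most like them over the 17 kidney arrays were searched among 12471. *Spp1* was most like *Fst*, which encodes the activin antagonist follistatin, at r = 0.96 (Spearman's rho 0.95), and *Fst* itself spanned 3.76 to 8.89. *Fst* is also a member of the list of injured and repairing tubule genes above. The next was *Klhdc8a* at r = 0.94. *Gdf15* was most like *Erf*, an ETS-family repressor, at r = 0.89 (rho 0.86), and *Aga*, a lysosomal amidase, at r = 0.88 (rho 0.90). *Havcr1* was nearest *Kiz* at r = 0.80 and *Ppp6r1* at r = 0.74, and *Lcn2* was nearest *Fam25a* at r = 0.81 and *Hip1* at r = 0.79. These are the extremes of a large search over arrays that share dose groups and outlying arrays, and are given as a description.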

How the data were processed

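Expression was measured on 44 single-colour arrays, 17 of kidney and 27 of liver, each placed in its group by its title. The deposited values are log2 expression values summarised by RMA, per the submitters' processing notes. The version, software, chip definition and whether the organs were normalized together are not stated in the sources used here. Quantile normalization, a step of RMA, hides a shift of most transcripts in 1 direction.

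Of 31099 probe sets, 57 controls were left out and 31042 tested. The platform annotation gives 20826 of these 1 gene symbol, 436 several and 9780 none, and 20758 were matched by gene ID to RefSeq's GRCr8 gene table, used for names. Where a gene has several probe sets, the one of highest mean within the organ is used.

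The 7 dose groups of an organ were fitted together with limma 3.58.1 (lmFit, eBayes; R 4.3.3). P-values are two-sided, were adjusted over all probe sets by Benjamini-Hochberg and called under 0.05. Adjusted p-values come from limma throughout, and the fit was checked on simulated data. P-values measure the spread between these arrays. The 8 genes are named in every comparison whatever their values. Likeness took the 2 probe sets of highest r among those of 1 gene with a kidney mean above the median. From the further lists, up to 4 genes each way per list past the threshold in kidney were to be named. *Acsm2*, and *Atf3*, *Myc*, *Hmox1*, *Cd44* and *Sox9* as examples of list content, fall outside this rule. The 8 genes and the lists were chosen with earlier results of these data known, and the TATAAA search was added after the windows were read. Alternatives were array weights, a second quantile normalization, a filter on dim probe sets, other eBayes settings, a replicate block, 2 groups only, other probe set rules, a slope over log dose, and leaving out each array.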

Additional observations from a re-analysis of the deposited data

Results flagged for a closer look

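In 48 sets of 4 liver arrays (a gene at a dose), 2 held an array far from the others by Dixon's test, whose chance rate is about 1 in 20 sets. *Clu* read 12.27 in 1 liver at 1 mg/kg, above 3 arrays at 12.16 to 12.17. *Vcam1* read 7.09 in 1 liver at 100 mg/kg, above 3 arrays between 6.88 and 6.91. Of 32 pairs of organ changes at 0.1 to 100 mg/kg, 1 moved in opposite directions in every array: at 0.1 mg/kg *Gdf15* lay below the vehicle mean in both kidneys and above it in all 3 livers, and the kidney change minus the liver change was -1.06. That difference was not tested.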

How the results depend on the processing

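With all arrays, 0 of the 8 markers passed in each of the 18 comparisons. This became 1 of 8, *Gdf15*, with array weights at 500 mg/kg in kidney and in the organ difference at 500 mg/kg. Leaving out 1 array gave 0 to 1 of 8 in kidney at 1, 100, 300 and 500 mg/kg and in the organ difference at 500 mg/kg, each time without kidney vehicle replicate 1. Where this left 1 array in a group, that array is assumed to vary like the other groups. Same-numbered kidneys of different groups correlated at -0.49 to 0.45 in their deviations (33 pairs, median 0.10). Kidneys of different number and group had a median of -0.086. Same-numbered livers correlated at -0.21 to 0.28 (78 pairs, median 0.034), and livers of different number had a median of -0.017. Whether same-numbered arrays share a source was not tested. The fit with the replicate number as a block left out kidney 10 mg/kg replicate 2, whose title gives no number. In it kidney *Gdf15* at 500 mg/kg was -1.31 (adjusted p = 0.471 in limma) and 0 of 8 passed. *Spp1* between top and lower doses turned from 0.18 to -0.14 there, with both the block and the missing array differing from the main fit. Leaving out 1 kidney array turned that value too (range -0.072 to 0.43), and those at 500 mg/kg of *Havcr1* (-0.15 to 0.11), *Lcn2* (-0.065 to 0.33), *Vim* (-0.14 to 0.035), *Clu* (-0.13 to 0.11) and *Timp1* (-0.096 to 0.041). Liver *Clu* between top and lower doses turned from -0.09 to 0.16 on its other probe set and 0.038 on the mean of both. Counts of all probe sets past the threshold moved more: from 0 with all arrays to as many as 616 in kidney at 500 mg/kg (424 with array weights), 103 at 300 mg/kg, 23 at 100 mg/kg, 138 at 10 mg/kg, 201 at 1 mg/kg and 319 at 0.1 mg/kg. In liver 500 mg/kg gave 1 to 136 (55 with all arrays), 300 mg/kg gave 0 to 139 (38), and they ran from 49 to 430 between top and lower doses (177) and 12 to 211 in the slope (76). The organ difference at 500 mg/kg gave 0 to 951 (9), and that at 300 mg/kg 0 to 200 (0). The cause was not tested.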
